A study of Mus musculus with 12 samples.

Results

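RNA from cultured heart fibroblasts of 3-month-old mice was compared with RNA from the same kind of culture of newborn mice, all in cells that carried no reprogramming factor. The comparison takes the 4 of 12 libraries whose treatment is LacZ and whose donors were adult or neonatal, 2 libraries per age, and covers every listed gene, 16383 in all, of which 11940 had enough counts to be tested. The LacZ adult group is wild-type primary cardiac fibroblasts of mice aged 3 months. The LacZ neonatal group is wild-type primary cardiac fibroblasts of mice from postnatal day 1 to 3. Both groups received a LacZ vector, which encodes a bacterial enzyme and serves as the control for the vectors of Mef2c, Gata4 and Tbx5 (MGT), and both were collected on day 3. All 12 sample titles name MGT, so the vector was read from the treatment field. The labels give no strain, number of pooled animals or passage, and do not say if a group's libraries are separate cultures. The p-values therefore measure the spread between libraries only, estimated jointly over the 6 groups of all 12 libraries. Age cannot be told apart from cell preparation.

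By its title the study is about a barrier to direct reprogramming of cardiac fibroblasts into cardiomyocyte-like cells, and the LacZ cells give the starting state at each age. Cardiac fibroblasts make and remodel the heart's collagen network, and in the newborn they lay down a loose fibronectin-rich and periostin-rich matrix while the heart still grows. After birth the fetal growth programme, much of it under imprinted genes, is switched off in many tissues. Cultures plated from digested hearts can also hold endothelial, mural, mesothelial, immune and muscle cells, so a difference between ages in bulk RNA can come from which cells were plated as well as from what each fibroblast expresses.

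Counts summed to 13648531 and 15200619 in the LacZ adult libraries, against 15357400 and 16339091 in the LacZ neonatal libraries. Levels are given as CPM (counts scaled to a common library total) after TMM scaling, and a library's count of 0 leaves room for at most 0.191 CPM. The LacZ adult libraries differed from each other by far more than counting error, with a chi-square of 21.2 for each degree of freedom. It was 2.284 for the pair of LacZ neonatal libraries and at most 7.408 in the other groups. The joint estimate of the spread may therefore be too small for the LacZ adult pair. Part of this followed transcript length. Over genes with at least 10 CPM, the log2 ratio of replicate 2 to replicate 1 correlated with log exon length at r = -0.622 in LacZ adult libraries (8171 genes) and at r = -0.00737 in LacZ neonatal libraries (8257 genes), correlations across genes, which are not independent replicates. The change between ages correlated with length at r = -0.172 (8301 genes). Kdm5d (chromosome Y, 897788 to 956786, mm10), which lies on the Y chromosome, had 37.4 and 29 CPM in LacZ adult libraries, against 15.1 and 13.8 CPM in LacZ neonatal libraries (log2 1.20 ± 0.13, adjusted p = 5.4e-07). The sex of the donors is not in the labels, and its part in the other results was not tested.

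Of the 11940 genes, 4281 (35.9%) were called at an adjusted p below 0.05 by edgeR's quasi-likelihood test, from which all adjusted p-values here come. In LacZ adult cells 1996 genes (16.7%) were higher and 2285 (19.1%) lower than in LacZ neonatal cells. Without LacZ neonatal replicate 1 the higher count was 1311. At least 2-fold differences were found for 586 higher genes (4.91%) and 859 lower genes (7.19%). Many of the large falls left little transcript behind: 360 of the 859 averaged under 1 CPM in LacZ adult cells, and 149 averaged at least 10 CPM. Among the 586 genes that were at least 2-fold higher, 187 averaged under 1 CPM in LacZ neonatal cells and 187 at least 10 CPM. Genes on 11 marker lists of other cell types made up 73 of the 859 (8.5%) and 25 of the 586 (4.27%), beside 161 of all 11940 tested genes (1.35%). Some of them, such as Acta2 and Aldh1a2, also stand on other lists. The lists were written with earlier results of these data known, so these shares are no test. Counts of called genes on the lists below stand beside the 16.7% higher and 19.1% lower of all tested genes.

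**Figure D1:**
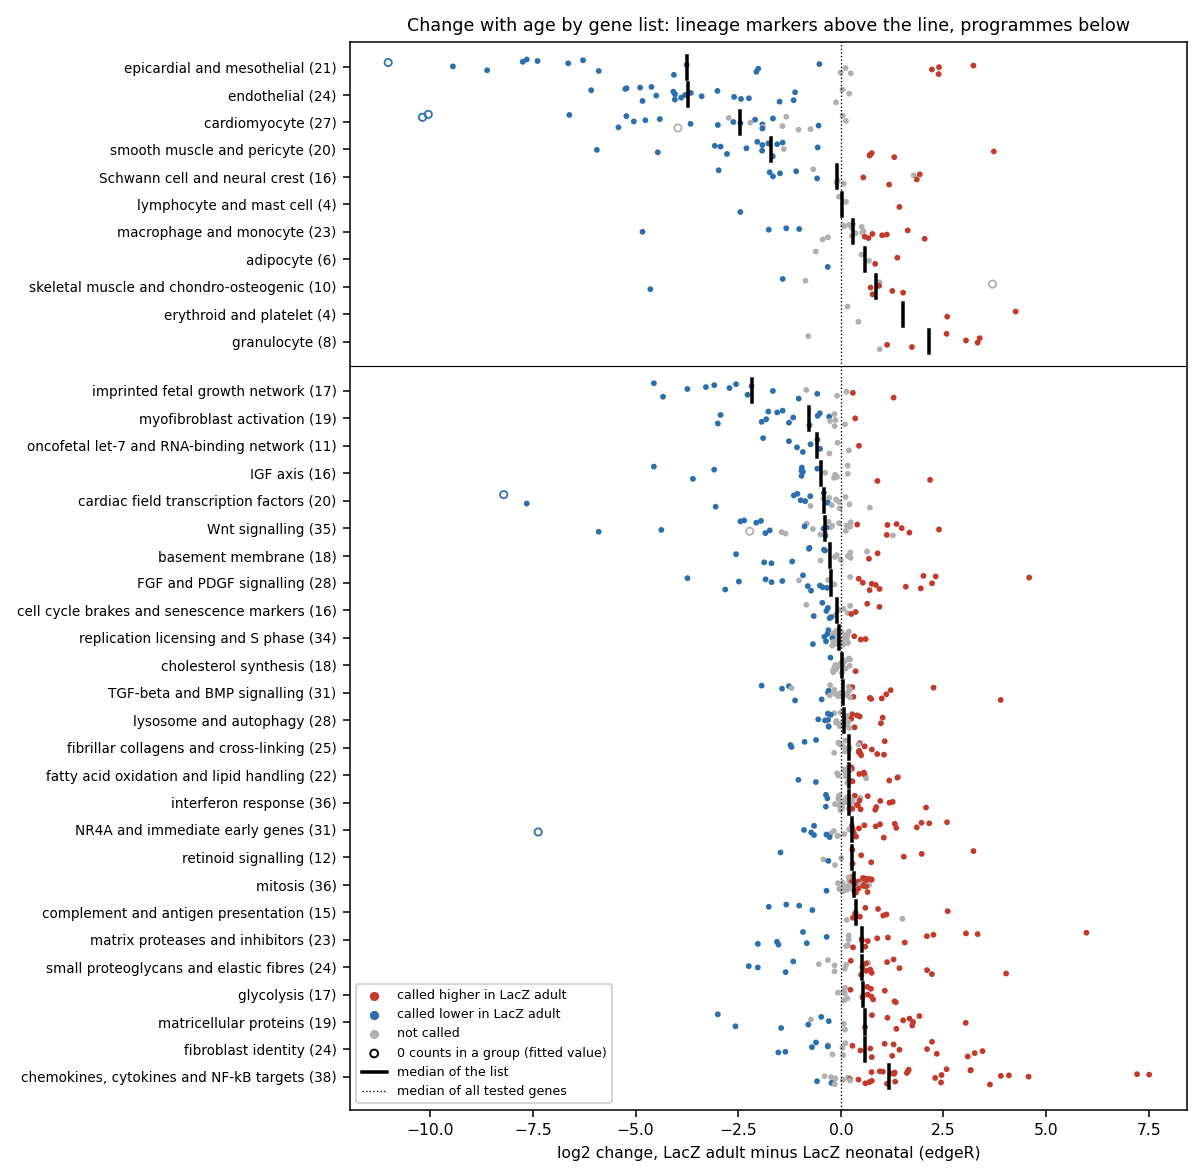
Log2 change from LacZ neonatal to LacZ adult cells for each tested member of 37 gene lists, with the number of tested members in brackets. Endothelial, mesothelial, cardiomyocyte and mural markers lie mostly left of 0 with medians from -3.76 to -1.71, whereas chemokine and fibroblast identity genes have medians of 1.17 and 0.60.

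Mesothelial markers were lower or nearly absent in adult cells. The mesothelium is the sheet that covers the heart, and the fetal epicardium, its precursor, is a source of cardiac fibroblasts. Of 21 tested genes on the epicardial and mesothelial list, 14 were lower and 4 higher in LacZ adult cells, with a median log2 change of -3.76, beside 0.0027 over all tested genes. The simple epithelial keratin gene Krt8 (chromosome 15, 101996698 to 102004482) had 0 counts in both LacZ adult libraries, against 16.1 and 15.2 CPM in LacZ neonatal libraries, so it was at least 174-fold lower (adjusted p = 3.4e-10). Its partner Krt18 had 3 counts over both LacZ adult libraries, against 10.2 and 9.23 CPM in LacZ neonatal libraries, a neonatal to adult ratio of 108 (95% counting interval 36.6 to 526). The zinc finger gene Bnc1, a mesothelial regulator, had 2 counts in LacZ adult cells, against 49.5 and 44.7 CPM in LacZ neonatal libraries, a ratio of 785 (95% counting interval 217 to 6489). Both LacZ neonatal libraries held all 3 transcripts, and both LacZ adult libraries were at or near 0.

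The surface genes of the same layer moved alike. Lrrn4, a leucine-rich repeat membrane protein of mesothelium, had 0.894 and 1.41 CPM in LacZ adult libraries, against 267 and 239 CPM in LacZ neonatal libraries (log2 -7.75 ± 0.20, adjusted p = 1.1e-15). The uroplakin gene Upk1b had 0.958 and 0.732 CPM in LacZ adult libraries, against 145 and 139 CPM in LacZ neonatal libraries (log2 -7.39 ± 0.17, adjusted p = 4.2e-16). Upk3b had 1.92 and 1.63 CPM in LacZ adult libraries, against 145 and 130.5 CPM in LacZ neonatal libraries (log2 -6.28 ± 0.14, adjusted p = 2e-16). Adult and neonatal libraries did not overlap in these or the next gene. Here and below this is a description and adds no support to the calls. Part of the named genes were chosen for groups without overlap, and the share of all genes without overlap is not given. The membrane glycoprotein gene Gpm6a had 0.128 and 0.225 CPM in LacZ adult libraries, against 80.2 and 66.5 CPM in LacZ neonatal libraries (log2 -8.62 ± 0.28, adjusted p = 3.3e-14). Wt1, the transcription factor that marks the epicardium, had 3 counts over both LacZ adult libraries, against 20.6 and 18.5 CPM in LacZ neonatal libraries, a ratio of 217 (95% counting interval 74.1 to 1057), and an antisense gene, Wt1os, overlaps it. Ezrin (Ezr), which ties the membrane to actin in epithelia and other cells, had 18.5 and 19.1 CPM in LacZ adult libraries, against 332 and 298 CPM in LacZ neonatal libraries (log2 -4.07 ± 0.11, adjusted p = 1.8e-15). The 4 higher genes were Aldh1a2, Bnc2, Efemp1 and the scarce Mgarp. Aldh1a2, the retinoic acid synthesis enzyme, had 471 and 493 CPM in LacZ adult libraries, against 51.1 and 51.7 CPM in LacZ neonatal libraries (log2 3.23 ± 0.10, adjusted p = 3.3e-14). Bnc2, a relative of Bnc1, had 24.8 and 12.3 CPM in LacZ adult libraries, against 3.68 and 3.36 CPM in LacZ neonatal libraries (log2 2.39 ± 0.25, adjusted p = 3.2e-07). Tbx18, an epicardial and sinus node factor, had 105 and 107 CPM in LacZ adult libraries, against 99.1 and 96.6 CPM in LacZ neonatal libraries and was not called (log2 0.11 ± 0.09, adjusted p = 0.35). Several genes of the largest falls of all tested genes, chosen by size and not by list, were of the same scarce kind: the basal keratin gene Krt14 had 0 counts in LacZ adult cells and was at least 63-fold lower, and Vat1l, the tetraspanin gene Tspan8 and the receptor subunit gene Gabra4 had 1 to 2 adult counts.

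Endothelial markers were lower in 21 of 24 tested genes and higher in none, with a median log2 change of -3.72. Cadherin 5 (Cdh5), the adhesion protein of endothelial junctions, had 4.34 and 2.93 CPM in LacZ adult libraries, against 101 and 113 CPM in LacZ neonatal libraries (log2 -4.89 ± 0.25, adjusted p = 1.4e-11). Pecam1, a second junction protein, had 2.36 and 3.04 CPM in LacZ adult libraries, against 60.4 and 73 CPM in LacZ neonatal libraries (log2 -4.61 ± 0.19, adjusted p = 9e-13). Endomucin (Emcn), a surface sialomucin of capillaries and veins, had 1.09 and 1.3 CPM in LacZ adult libraries, against 80.8 and 82.4 CPM in LacZ neonatal libraries (log2 -6.08 ± 0.19, adjusted p = 3.3e-14). Both LacZ adult libraries lay far below both LacZ neonatal libraries for each of these genes. The VEGF receptor gene Flt1 had 1.6 and 1.46 CPM in LacZ adult libraries, against 53.9 and 60.4 CPM in LacZ neonatal libraries (log2 -5.22 ± 0.18, adjusted p = 7.6e-14). Tek, Eng and Npr3 were not called. Tek, the angiopoietin receptor, had 26.4 and 23.9 CPM in LacZ adult libraries, against 24.2 and 24.8 CPM in LacZ neonatal libraries, and endoglin (Eng), a TGF-beta co-receptor that cultured fibroblasts also carry, had 445 and 441 CPM in LacZ adult libraries, against 381 and 388 CPM in LacZ neonatal libraries. Their adjusted p-values were 0.85 and 0.096.

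Smooth muscle and pericyte markers split by gene. Of 20 tested, 14 were lower and 5 higher, with a median of -1.71, and the 5 became 3 without LacZ neonatal replicate 2. The proteoglycan gene Cspg4 (NG2), which marks pericytes, had 2.68 and 1.46 CPM in LacZ adult libraries, against 121 and 131 CPM in LacZ neonatal libraries (log2 -5.94 ± 0.19, adjusted p = 3.3e-14). The adhesion gene Mcam had 5.56 and 5.8 CPM in LacZ adult libraries, against 126 and 124 CPM in LacZ neonatal libraries (log2 -4.46 ± 0.11, adjusted p = 5.2e-16). The adult values again lay far below the neonatal ones. Myh11, the myosin of mature smooth muscle, was low in both groups at 2.17 and 1.13 CPM in LacZ adult cells, against 6.85 and 6.51 CPM in LacZ neonatal cells (log2 -2.04 ± 0.25, adjusted p = 2.7e-06). Ndufa4l2, a mitochondrial protein induced by hypoxia and abundant in pericytes, went the other way with 17.1 and 15.8 CPM in LacZ adult libraries, against 1.19 and 1.28 CPM in LacZ neonatal libraries (log2 3.73 ± 0.23, adjusted p = 3.1e-10).

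Cardiomyocyte markers were lower in adult cultures. Of 27 tested, 17 were lower and none higher, with a median of -2.45 (-2.20 if the genes without adult reads take their bound). Myh6, the cardiac myosin heavy chain, and Myl7, the atrial light chain, had 0 counts in both LacZ adult libraries, against 8.26 and 7.63 CPM and 8.2 and 9.28 CPM in LacZ neonatal libraries, and were at least 88.4-fold and 97.5-fold lower. Pln, Mb and Smpx also had 0 adult counts. Cardiac troponin T (Tnnt2) had 2.81 and 2.99 CPM in LacZ adult libraries, against 308 and 262 CPM in LacZ neonatal libraries (log2 -6.61 ± 0.20, adjusted p = 2.7e-14). Other sarcomere genes were scarcer: Myom1 of the M-band had 1.41 and 1.63 CPM in LacZ adult libraries, against 19.3 and 19.5 CPM in LacZ neonatal libraries (log2 -3.66 ± 0.24, adjusted p = 5e-10). Cardiac troponin I (Tnni3) had 0.703 and 0.338 CPM in LacZ adult libraries, against 0.736 and 0.267 CPM in LacZ neonatal libraries and was not called (adjusted p = 0.97). The calcium pump gene Atp2a2, which fibroblasts use as well, had 524 and 464 CPM in LacZ adult libraries, against 450.2 and 456 CPM in LacZ neonatal libraries and was not called (log2 0.12 ± 0.08, adjusted p = 0.23). Without LacZ adult replicate 2 it was called higher (log2 0.21, adjusted p = 0.026).

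The list sums show how much RNA these markers carried. Restricted to members of no other list, the 16 mesothelial markers summed to 123 and 108 CPM in LacZ adult libraries, against 1325 and 1190.1 CPM in LacZ neonatal libraries, 10.9-fold less in adult cells. All 22 listed members, Aldh1a2 among them, summed to 993 and 1023 CPM in LacZ adult libraries, against 1567 and 1425 CPM in LacZ neonatal libraries. The 16 mural markers of no other list summed to 143 and 119 CPM in LacZ adult libraries, against 485 and 473 CPM in LacZ neonatal libraries. All 23 listed mural markers summed to 1891 and 1849 CPM in LacZ adult libraries, against 4353 and 4312 CPM in LacZ neonatal libraries. Endothelial markers (26 genes) summed to 714 and 667 CPM in LacZ adult libraries, against 1645 and 1691 CPM in LacZ neonatal libraries. Most of the endothelial sum that was left in adult cells was Eng, at 445 and 441 CPM, and most of the adult cardiomyocyte sum of 582 and 519 CPM (33 genes) was Atp2a2, at 524 and 464 CPM. In bulk RNA fewer cells of a type and less RNA per cell cannot be told apart, and how far these lineages account for the other differences between the ages was not tested.

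**Figure D2:**
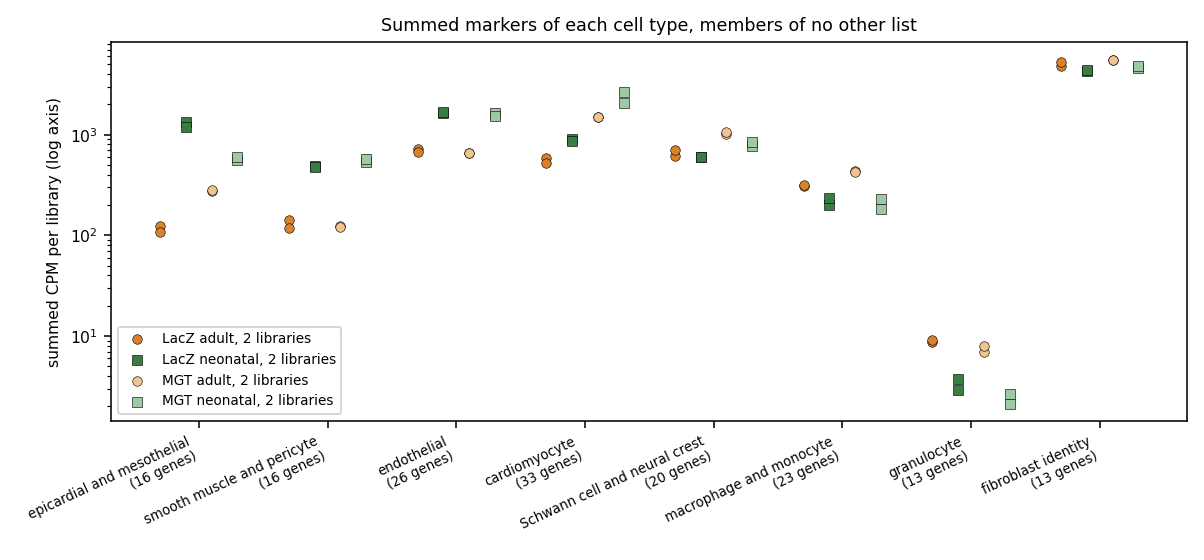
Summed CPM per library on a log axis for the members of each marker list that stand on no other list, with LacZ adult, LacZ neonatal, MGT adult and MGT neonatal libraries from left to right. Mesothelial sums were 123 and 108 CPM in LacZ adult libraries and 1325 and 1190 CPM in LacZ neonatal libraries, while fibroblast identity sums lay between 4302 and 5248 CPM in the 4 LacZ libraries.

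Blood cell markers gave calls in both directions. Of 23 tested macrophage and monocyte genes, 7 were higher and 4 lower, with a median of 0.29, and the 4 became 2 without LacZ neonatal replicate 2. The pan-leukocyte gene Ptprc had 4.85 and 5.24 CPM in LacZ adult libraries, against 4.13 and 4.11 CPM in LacZ neonatal libraries, and the CSF1 receptor gene Csf1r had 18.8 and 21.1 CPM in LacZ adult libraries, against 19 and 19.5 CPM in LacZ neonatal libraries. Neither gene was called (adjusted p = 0.27 and 0.75). Itgam, the CD11b integrin of myeloid cells, had 8.37 and 9.8 CPM in LacZ adult libraries, against 2.77 and 3.09 CPM in LacZ neonatal libraries (log2 1.63 ± 0.19, adjusted p = 1.4e-06). The lectin receptor gene Clec4n had 14.1 and 13.7 CPM in LacZ adult libraries, against 2.66 and 4.05 CPM in LacZ neonatal libraries (log2 2.04 ± 0.18, adjusted p = 2.6e-08). The complement gene C1qc, made by tissue macrophages, was instead lower, with 1.15 and 2.37 CPM in LacZ adult libraries, against 4.53 and 7.52 CPM in LacZ neonatal libraries (log2 -1.76 ± 0.31, adjusted p = 0.0002). Summed over the 23 genes of no other list, macrophage markers came to 308 and 318 CPM in LacZ adult libraries, against 198 and 234 CPM in LacZ neonatal libraries. Granulocyte genes had 6 of 8 tested higher and none lower, but Lcn2, Mmp8 and Mmp9 among them stand on other lists too. The 13 granulocyte genes of no other list summed to 8.75 and 9.24 CPM in LacZ adult libraries, against 2.89 and 3.73 CPM in LacZ neonatal libraries, and S100a9, Retnlg and Ngp had 0 counts in all 4. The platelet factor gene Pf4, which macrophages also express, had 50.7 and 67 CPM in LacZ adult libraries, against 8.09 and 11.4 CPM in LacZ neonatal libraries (log2 2.59 ± 0.15, adjusted p = 6.5e-11). T cell genes Cd3d, Cd3e and Cd3g were at 0 in all 4 libraries. Of 4 tested lymphocyte and mast cell genes 1 was higher and 1 lower, and of 4 tested erythroid and platelet genes 2 were higher. Of 6 adipocyte genes 2 were higher and 1 lower (0 without any 1 of the 4 libraries), with Adipoq at 0 counts in all 4 LacZ libraries.

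Schwann cell and neural crest genes gave 4 higher and 6 lower of 16 tested (median -0.10). Myelin basic protein (Mbp) had 4.66 and 2.25 CPM in LacZ adult libraries, against 27.7 and 26 CPM in LacZ neonatal libraries (log2 -2.98 ± 0.24, adjusted p = 9.6e-09). The cadherin gene Cdh19 had 9.26 and 9.07 CPM in LacZ adult libraries, against 2.04 and 2.77 CPM in LacZ neonatal libraries (log2 1.92 ± 0.25, adjusted p = 6.7e-06). Sox10, the defining factor of the lineage, was at 0 in adult libraries and at most 0.339 CPM in neonatal ones. Of 10 tested skeletal muscle and chondro-osteogenic genes 5 were higher and 2 lower (median 0.85, and 0.75 if genes without reads take their bound). The 5 became 3 without LacZ adult replicate 1 or LacZ neonatal replicate 1, and the 2 became 1 without LacZ adult replicate 1 or LacZ neonatal replicate 2. Sox9, a cartilage factor that activated fibroblasts also express, had 68.1 and 71.5 CPM in LacZ adult libraries, against 44.2 and 40.2 CPM in LacZ neonatal libraries (log2 0.73 ± 0.12, adjusted p = 7.1e-05).

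Defining fibroblast genes were abundant in all 4 LacZ libraries. Vimentin (Vim), the intermediate filament of mesenchymal cells, had 2704 and 3047 CPM in LacZ adult libraries, against 2734 and 2794 CPM in LacZ neonatal libraries, and gelsolin (Gsn), an actin-severing protein abundant in cardiac fibroblasts, had 238 and 253 CPM in LacZ adult libraries, against 241 and 236 CPM in LacZ neonatal libraries. Neither differed by more than the spread between libraries (adjusted p = 0.61 and 0.74). Collagen I chain Col1a2 had 4803 and 4539 CPM in LacZ adult libraries, against 4386 and 4277 CPM in LacZ neonatal libraries (log2 0.11 ± 0.08, adjusted p = 0.31) and was called only when the fit corrected for gene length (log2 0.26, adjusted p = 0.0074, a setting chosen after seeing the data). The collagen receptor gene Ddr2 had 399 and 314 CPM in LacZ adult libraries, against 295 and 292 CPM in LacZ neonatal libraries (log2 0.28 ± 0.09, adjusted p = 0.025), a call lost without LacZ adult replicate 1 (log2 0.11), LacZ neonatal replicate 1 (log2 0.29) or LacZ neonatal replicate 2 (log2 0.28). Tcf21, the transcription factor of the cardiac fibroblast lineage, had 178 and 182 CPM in LacZ adult libraries, against 244 and 205 CPM in LacZ neonatal libraries (log2 -0.32 ± 0.11, adjusted p = 0.037), lost without LacZ adult replicate 1 (log2 -0.29) or LacZ neonatal replicate 1 (log2 -0.18).

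On the fibroblast identity list 14 of 24 tested genes were higher and 5 lower (median 0.60). The PDGF receptor gene Pdgfra (chromosome 5, 75152292 to 75198215), which marks resident cardiac fibroblasts, had 962 and 873 CPM in LacZ adult libraries, against 202 and 192 CPM in LacZ neonatal libraries (log2 2.22 ± 0.09, adjusted p = 1.1e-12). Both LacZ adult libraries stood well above both LacZ neonatal libraries. Serpinf1, which encodes the secreted anti-angiogenic factor PEDF, had 152 and 181 CPM in LacZ adult libraries, against 16.8 and 17.9 CPM in LacZ neonatal libraries (log2 3.26 ± 0.12, adjusted p = 1.3e-13). Mfap5, a microfibril component, had 153 and 169 CPM in LacZ adult libraries, against 37.1 and 38 CPM in LacZ neonatal libraries (log2 2.10 ± 0.09, adjusted p = 1.5e-12). Decorin (Dcn), the collagen-binding proteoglycan, had 1739 and 1951 CPM in LacZ adult libraries, against 770.1 and 744 CPM in LacZ neonatal libraries (log2 1.28 ± 0.10, adjusted p = 3.7e-09). Adult and neonatal libraries did not overlap in any of these 4 genes. Pi16, which marks a fibroblast subset, had 2.75 and 2.82 CPM in LacZ adult libraries, against 0.396 and 0.107 CPM in LacZ neonatal libraries (log2 3.45 ± 0.49, adjusted p = 1.7e-05). Fap, a surface protease of activated fibroblasts, had 13 and 11.4 CPM in LacZ adult libraries, against 1.41 and 1.44 CPM in LacZ neonatal libraries (log2 3.09 ± 0.30, adjusted p = 1.2e-07). Both were higher in both adult libraries. The fibril-associated collagen gene Col14a1 had 92.1 and 50.9 CPM in LacZ adult libraries, against 209.9 and 200.1 CPM in LacZ neonatal libraries (log2 -1.52 ± 0.20, adjusted p = 6.6e-06). The surface glycoprotein gene Thy1 had 158 and 171 CPM in LacZ adult libraries, against 273 and 263 CPM in LacZ neonatal libraries (log2 -0.70 ± 0.09, adjusted p = 2.9e-06). Both were lower in adult cells. The peptidase gene Dpp4 fell as well (log2 -1.35 ± 0.14, adjusted p = 4.2e-07). The 13 identity genes of no other list summed to 4845 and 5248 CPM in LacZ adult libraries, against 4302 and 4346 CPM in LacZ neonatal libraries.

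Among the 7746 genes with at least 10 CPM in each of the 4 LacZ libraries, 2750 were called, 1407 higher and 1343 lower. The stromelysin gene Mmp3 led the higher ones, and the largest changes after it included Cxcl5, Hp, Ptx3, Cpxm1, Serpinf1, Aldh1a2, Asb5, Spp1, Dpep1 and Clmp, with log2 changes of 5.98 to 2.83. Cpxm1, a secreted carboxypeptidase-like protein, had 250.3 and 291 CPM in LacZ adult libraries, against 23.7 and 25.1 CPM in LacZ neonatal libraries (log2 3.47 ± 0.13, adjusted p = 1.5e-13). The dipeptidase gene Dpep1 had 174 and 210.2 CPM in LacZ adult libraries, against 28.3 and 21.1 CPM in LacZ neonatal libraries (log2 2.96 ± 0.14, adjusted p = 4e-12). The adhesion gene Clmp and Asb5, of the ankyrin and SOCS box family, were higher in both adult libraries too (log2 2.83 and 3.06). Among lower genes of this kind Ezr came first, then Pappa, Atp1b1, Cd93, Postn, Ctla2a, Nes, Peg3, Itga4, Rflnb, Sorbs2 and Ccn4. Several of those are also made by endothelial, mesothelial or mural cells. The sodium pump subunit gene Atp1b1 had 24.3 and 35.9 CPM in LacZ adult libraries, against 336 and 299.9 CPM in LacZ neonatal libraries (log2 -3.40 ± 0.13, adjusted p = 5e-13). Cd93, an endothelial surface receptor, had 11 and 11.4 CPM in LacZ adult libraries, against 94.5 and 113 CPM in LacZ neonatal libraries (log2 -3.21 ± 0.12, adjusted p = 1.3e-13). The integrin gene Itga4 had 24.7 and 16.2 CPM in LacZ adult libraries, against 130.1 and 126 CPM in LacZ neonatal libraries (log2 -2.65 ± 0.14, adjusted p = 1.6e-11). Nestin (Nes), an intermediate filament of immature cells, had 79.4 and 72.2 CPM in LacZ adult libraries, against 493 and 529 CPM in LacZ neonatal libraries (log2 -2.75 ± 0.12, adjusted p = 2.7e-12). All 4 were lower in both adult libraries. Ctla2a has a near-identical copy, Ctla2b, so its value (log2 -2.97) is uncertain.

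The largest rises of all, whatever the level in neonatal cells, were in the eotaxin gene Ccl11, Ccl8, Mmp3, Alpl, Stac2, Ly6k, Greb1, Cygb, Fmo1, Fgf10, Cxcl14 and Tmem59l. Ccl11 had 5.24 and 7.44 CPM in LacZ adult libraries, against 1 count over both LacZ neonatal libraries, an adult to neonatal ratio of 233 (95% counting interval 41.4 to 9257). Alkaline phosphatase (Alpl) had 33 and 34.9 CPM in LacZ adult libraries, against 0.679 and 0.427 CPM in LacZ neonatal libraries (log2 5.93 ± 0.26, adjusted p = 2e-12). Cytoglobin (Cygb), a haem protein of fibroblasts and stellate cells, had 73.6 and 70.3 CPM in LacZ adult libraries, against 2.94 and 2.03 CPM in LacZ neonatal libraries (log2 4.86 ± 0.17, adjusted p = 6.1e-14). Both adult libraries were far above both neonatal ones for these 3 genes. The rule behind this ranking takes only genes whose groups do not overlap, so the separation is part of the choice.

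**Figure D3:**
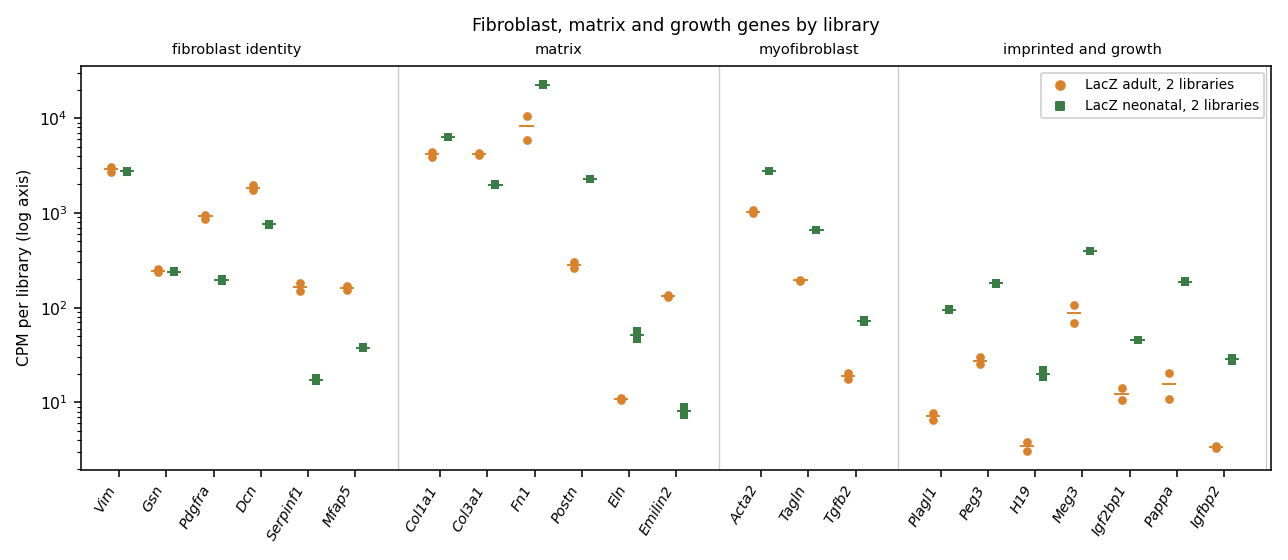
CPM per library on a log axis for fibroblast identity, matrix, myofibroblast and growth genes, LacZ adult left of LacZ neonatal, with a line at each mean of 2 libraries. Vim and Gsn lie close together in both groups, Pdgfra is higher in LacZ adult cells, and Postn, Acta2, Plagl1 and Pappa are higher in LacZ neonatal cells.

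Matrix genes moved in both directions. Fibrillar collagens and their cross-linking enzymes had 10 of 25 tested genes higher and 4 lower (median 0.19), and the 22 of no other list summed to 10860.0 and 10318 CPM in LacZ adult libraries, against 10581 and 10543 CPM in LacZ neonatal libraries. Collagen III (Col3a1), the compliant fibril collagen, had 4262 and 4060.2 CPM in LacZ adult libraries, against 2015 and 1955 CPM in LacZ neonatal libraries (log2 1.07 ± 0.10, adjusted p = 1.2e-07). Collagen I chain Col1a1 had 4416 and 3879 CPM in LacZ adult libraries, against 6298 and 6308 CPM in LacZ neonatal libraries (log2 -0.60 ± 0.10, adjusted p = 9.8e-05). Col3a1 and Col1a1 thus moved in opposite directions, while the other collagen I chain gene, Col1a2, was not called. The lysyl oxidase relative Loxl2, which cross-links collagen, had 367 and 370.4 CPM in LacZ adult libraries, against 857 and 839.7 CPM in LacZ neonatal libraries (log2 -1.20 ± 0.08, adjusted p = 1.2e-09).

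Periostin, fibronectin and elastin genes were lower. Periostin (Postn, chromosome 3, 54361109 to 54391037), a matricellular protein of the developing and injured heart, had 305 and 263 CPM in LacZ adult libraries, against 2259.8 and 2272 CPM in LacZ neonatal libraries (log2 -3.0 ± 0.10, adjusted p = 5.8e-14). Both LacZ adult libraries were far below both neonatal ones, which held 7.98 times as much on average. Fibronectin (Fn1), the scaffold on which collagen assembles, had 10613 and 5871 CPM in LacZ adult libraries, against 22299 and 22893 CPM in LacZ neonatal libraries (log2 -1.46 ± 0.16, adjusted p = 8.3e-07). The adult libraries did not overlap the neonatal ones but differed from each other, and Fn1 is a long transcript. Elastin (Eln) had 11.2 and 10.5 CPM in LacZ adult libraries, against 56.2 and 46.6 CPM in LacZ neonatal libraries (log2 -2.24 ± 0.13, adjusted p = 7.4e-11). Ccn4, a Wnt-induced matricellular gene, had 97.1 and 89.2 CPM in LacZ adult libraries, against 558 and 546 CPM in LacZ neonatal libraries (log2 -2.57 ± 0.09, adjusted p = 1.4e-13). Both groups were again apart. Osteopontin (Spp1), a matricellular cytokine, was higher in adult cells with 294 and 385 CPM in LacZ adult libraries, against 37.7 and 44.6 CPM in LacZ neonatal libraries (log2 3.04 ± 0.13, adjusted p = 1.8e-12). Tenascin C (Tnc) had 1731 and 1301 CPM in LacZ adult libraries, against 861 and 932 CPM in LacZ neonatal libraries (log2 0.76 ± 0.10, adjusted p = 1e-05). The elastic fibre protein gene Emilin2 had 137 and 129 CPM in LacZ adult libraries, against 7.36 and 8.91 CPM in LacZ neonatal libraries (log2 4.03 ± 0.14, adjusted p = 5.8e-14). Matricellular genes as a list had 10 of 19 higher and 6 lower (median 0.59), and small proteoglycans and elastic fibre genes 13 of 24 higher and 4 lower (median 0.51). The matricellular sum was instead lower, at 31081 and 24478 CPM in LacZ adult libraries, against 47560 and 48473 CPM in LacZ neonatal libraries (20 genes).

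Basement membrane genes, which also mark the cells that sit on one, had 2 of 18 tested higher and 8 lower (median -0.26), the 2 becoming 4 without LacZ adult replicate 2. Laminin alpha 5 (Lama5), a long transcript of epithelial and endothelial membranes, had 30 and 18 CPM in LacZ adult libraries, against 146 and 134 CPM in LacZ neonatal libraries (log2 -2.55 ± 0.16, adjusted p = 2.9e-10). Col18a1 had 16.6 and 14.5 CPM in LacZ adult libraries, against 52 and 48.2 CPM in LacZ neonatal libraries (log2 -1.69 ± 0.12, adjusted p = 1.2e-09). Collagen IV (Col4a1), far more abundant, had 3190.1 and 2609 CPM in LacZ adult libraries, against 4973 and 4880.2 CPM in LacZ neonatal libraries (log2 -0.76 ± 0.09, adjusted p = 1.9e-06).

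Matrix proteases and their inhibitors had 13 of 23 tested genes higher and 6 lower (median 0.51). Mmp3 (chromosome 9, 7445822 to 7455975), stromelysin 1, which cleaves proteoglycans and fibronectin and activates other proteases, had 1756 and 2175 CPM in LacZ adult libraries, against 32.4 and 29.8 CPM in LacZ neonatal libraries (log2 5.98 ± 0.13, adjusted p = 2e-16). Mean CPM was 63.2-fold higher in adult cells, with no overlap. The collagenase gene Mmp8 had 34.9 and 40.1 CPM in LacZ adult libraries, against 4.02 and 5.01 CPM in LacZ neonatal libraries (log2 3.05 ± 0.15, adjusted p = 1.4e-11). A second collagenase gene, Mmp13, had 28.1 and 29.5 CPM in LacZ adult libraries, against 5.77 and 7.68 CPM in LacZ neonatal libraries (log2 2.09 ± 0.19, adjusted p = 4.6e-08). Neither gene overlapped between the ages. Another stromelysin gene, Mmp10, was higher too (log2 2.25 ± 0.16, adjusted p = 2e-09). The gelatinase gene Mmp2, made constitutively by fibroblasts, was lower, with 293 and 294 CPM in LacZ adult libraries, against 559 and 554 CPM in LacZ neonatal libraries (log2 -0.92 ± 0.07, adjusted p = 9.6e-09). The inhibitors split in the same way, Timp1 with 1362 and 1658 CPM in LacZ adult libraries, against 499 and 528 CPM in LacZ neonatal libraries (log2 1.56 ± 0.09, adjusted p = 1.5e-10) and Timp3 with 242 and 153 CPM in LacZ adult libraries, against 824 and 777 CPM in LacZ neonatal libraries (log2 -2.02 ± 0.15, adjusted p = 4.5e-09).

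Myofibroblast genes were lower in adult cultures: 13 of 19 tested fell and 1 rose (median -0.76), the 1 becoming 2 without LacZ adult replicate 1. These encode the contractile and TGF-beta-driven state that fibroblasts enter in injury and on stiff plastic. Smooth muscle actin (Acta2) had 995 and 1069 CPM in LacZ adult libraries, against 2775 and 2740.5 CPM in LacZ neonatal libraries (log2 -1.42 ± 0.08, adjusted p = 5.6e-11). Transgelin (Tagln) had 193 and 196 CPM in LacZ adult libraries, against 658 and 664 CPM in LacZ neonatal libraries (log2 -1.77 ± 0.09, adjusted p = 1e-11). Calponin (Cnn1) had 6.39 and 7.77 CPM in LacZ adult libraries, against 20.3 and 21.3 CPM in LacZ neonatal libraries (log2 -1.55 ± 0.15, adjusted p = 8.5e-08). Each gene was lower in both adult libraries, and the groups did not overlap. The ligand gene Tgfb2 had 20.4 and 17.9 CPM in LacZ adult libraries, against 74.3 and 71.3 CPM in LacZ neonatal libraries (log2 -1.93 ± 0.13, adjusted p = 1.1e-09). Tgfb3 had 48.5 and 44.6 CPM in LacZ adult libraries, against 110.0 and 113 CPM in LacZ neonatal libraries (log2 -1.26 ± 0.10, adjusted p = 9.9e-09). Both ligands were lower in both adult libraries. Ccn2, a target of TGF-beta and YAP, had 1392 and 1516 CPM in LacZ adult libraries, against 2505 and 2533 CPM in LacZ neonatal libraries (log2 -0.79 ± 0.08, adjusted p = 2.9e-07). Acta2, Tagln, Cnn1, Lmod1 and Smtn also stand on the mural list, whose markers Cspg4 and Mcam were lower in adult cells too, and the part of mural cells in this fall was not tested.

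Imprinted genes of fetal growth were lower in adult cells. These genes are read from 1 parental copy, and a network around Plagl1 drives growth before birth and is shut down after it. Of 17 tested, 12 were lower and 2 higher, with a median of -2.18, and the 2 became 1 without LacZ adult replicate 2 or LacZ neonatal replicate 2. Plagl1, a zinc finger factor, had 7.66 and 6.59 CPM in LacZ adult libraries, against 94 and 95.9 CPM in LacZ neonatal libraries (log2 -3.74 ± 0.14, adjusted p = 1.6e-13). Peg3, a second zinc finger gene, had 30 and 25.4 CPM in LacZ adult libraries, against 182 and 179 CPM in LacZ neonatal libraries (log2 -2.71 ± 0.12, adjusted p = 2.5e-12). The hydrolase-fold gene Mest had 1.66 and 2.76 CPM in LacZ adult libraries, against 21.2 and 22.6 CPM in LacZ neonatal libraries (log2 -3.29 ± 0.19, adjusted p = 1.2e-10). Adult libraries lay well below neonatal ones for all 3. The non-coding RNA gene H19 had 3.83 and 3.04 CPM in LacZ adult libraries, against 18.3 and 21.9 CPM in LacZ neonatal libraries (log2 -2.55 ± 0.21, adjusted p = 1.6e-08). Another, Meg3, had 106 and 69.6 CPM in LacZ adult libraries, against 392 and 398 CPM in LacZ neonatal libraries (log2 -2.18 ± 0.14, adjusted p = 3.1e-10). Dlk1, a Notch-related membrane protein, had 0.639 and 0.676 CPM in LacZ adult libraries, against 7.3 and 4.0 CPM in LacZ neonatal libraries (log2 -3.08 ± 0.41, adjusted p = 6.8e-06). All 3 were lower in both adult libraries. Igf2, the growth factor gene of the network, was scarce in both groups, with 2 counts over both LacZ adult libraries, against 2.09 and 1.07 CPM in LacZ neonatal libraries, a ratio of 26.1 (95% counting interval 6.91 to 221), and an antisense gene, Igf2os, overlaps it. Grb10, which restrains insulin and IGF receptors, had 143 and 131 CPM in LacZ adult libraries, against 446 and 418 CPM in LacZ neonatal libraries (log2 -1.66 ± 0.08, adjusted p = 9.1e-12). Dcn, imprinted in placenta and counted on the same list, was with Ndn one of the 2 that rose.

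Genes of the IGF axis and let-7 targets that maintain fetal growth gave more lower than higher calls. Pappa, the protease that frees IGF from its binding proteins, had 20.2 and 10.9 CPM in LacZ adult libraries, against 186 and 189 CPM in LacZ neonatal libraries (log2 -3.60 ± 0.17, adjusted p = 4.8e-12). The binding protein gene Igfbp2 had 3.45 and 3.27 CPM in LacZ adult libraries, against 27.3 and 29.7 CPM in LacZ neonatal libraries (log2 -3.08 ± 0.16, adjusted p = 2.9e-11). The receptor gene Igf1r had 123 and 95 CPM in LacZ adult libraries, against 214 and 207 CPM in LacZ neonatal libraries (log2 -0.95 ± 0.10, adjusted p = 5.3e-07). All 3 were lower in both adult libraries. Igf1 itself was not called, with 40.7 and 34.5 CPM in LacZ adult libraries, against 33.7 and 33.4 CPM in LacZ neonatal libraries (log2 0.17 ± 0.12, adjusted p = 0.32). Of 16 tested IGF axis genes 8 were lower and 2 higher (median -0.48). Among 11 tested oncofetal genes 7 were lower and 1 higher (median -0.57), the 1 becoming 0 without LacZ adult replicate 1 or either LacZ neonatal library. The RNA-binding protein gene Igf2bp1 had 14.3 and 10.5 CPM in LacZ adult libraries, against 46.1 and 45.6 CPM in LacZ neonatal libraries (log2 -1.89 ± 0.15, adjusted p = 7e-09). Its relative Igf2bp3 had 21.3 and 16.3 CPM in LacZ adult libraries, against 44.9 and 45.2 CPM in LacZ neonatal libraries (log2 -1.26 ± 0.12, adjusted p = 9.6e-08). The chromatin protein gene Hmga2 had 178 and 166 CPM in LacZ adult libraries, against 271 and 303 CPM in LacZ neonatal libraries (log2 -0.74 ± 0.10, adjusted p = 5.1e-06). Lin28a had 0 counts in all 4 LacZ libraries.

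Transcription factors of the heart fields were lower or not called: of 20 tested, 10 fell and none rose (median -0.42). Fibroblasts of the heart keep several of these factors, which separate them from fibroblasts of other organs. Gata6 had 54.3 and 52.1 CPM in LacZ adult libraries, against 114 and 108 CPM in LacZ neonatal libraries (log2 -1.06 ± 0.09, adjusted p = 1.2e-08). Tbx20 had 675 and 553 CPM in LacZ adult libraries, against 1008 and 1052 CPM in LacZ neonatal libraries (log2 -0.75 ± 0.10, adjusted p = 1.4e-05). Hand2 had 45.2 and 52.2 CPM in LacZ adult libraries, against 53.2 and 52.7 CPM in LacZ neonatal libraries and was not called (log2 -0.12 ± 0.10, adjusted p = 0.4). Gata5, an endocardial and epicardial member of its family, had 0 counts in LacZ adult libraries, against 1.75 and 2.67 CPM in LacZ neonatal libraries, and was at least 24.8-fold lower.

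Mitotic genes were mostly higher or not called, and 25 of 34 replication genes were not called. Of all tested genes 16.7% were higher and 19.1% lower. Of 36 tested mitotic genes 19 were higher in LacZ adult cells and 1 lower, with a median of 0.32. The 19 became 12 without LacZ neonatal replicate 2, and the 1 became 0 without any 1 of the 4 libraries. The mitotic kinase gene Plk1 had 93.6 and 91.9 CPM in LacZ adult libraries, against 50.9 and 59.5 CPM in LacZ neonatal libraries (log2 0.75 ± 0.10, adjusted p = 1.4e-05). Cyclin B1 (Ccnb1) had 112 and 125 CPM in LacZ adult libraries, against 79.2 and 84.6 CPM in LacZ neonatal libraries (log2 0.54 ± 0.11, adjusted p = 0.00056). Adult libraries exceeded neonatal ones in both genes. The proliferation marker Mki67 had 240.5 and 142 CPM in LacZ adult libraries, against 195 and 205 CPM in LacZ neonatal libraries, so that the adult values lay on either side of the neonatal ones (log2 -0.07 ± 0.24, adjusted p = 0.85). Topoisomerase Top2a had 299 and 250.4 CPM in LacZ adult libraries, against 263 and 269.6 CPM in LacZ neonatal libraries (log2 0.05 ± 0.09, adjusted p = 0.73). Of 34 replication genes 3 were higher and 6 lower (median -0.04), and the 6 became 1 without either LacZ neonatal library and 2 without LacZ adult replicate 2, while the 3 became 6 without LacZ adult replicate 1. Their sum was 1903 and 2001 CPM in LacZ adult libraries, against 1952 and 2003 CPM in LacZ neonatal libraries. Pcna, the replication clamp, was not called (log2 0.10 ± 0.09, adjusted p = 0.44) but was with LacZ adult replicate 1 left out (log2 0.21, adjusted p = 0.048).

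Senescence markers and cell cycle brakes gave 4 higher and 6 lower of 16 tested (median -0.10), the 6 becoming 3 without LacZ neonatal replicate 2. The p53 target Cdkn1a (p21) had 439.9 and 466 CPM in LacZ adult libraries, against 622 and 616 CPM in LacZ neonatal libraries (log2 -0.45 ± 0.07, adjusted p = 7e-05), lower in both adult libraries. Cdkn2a, which encodes p16 and p19Arf, had 17.2 and 18.1 CPM in LacZ adult libraries, against 15.5 and 14.7 CPM in LacZ neonatal libraries and was not called (log2 0.23 ± 0.16, adjusted p = 0.3). Cdkn2c, p18, had 38.6 and 45.5 CPM in LacZ adult libraries, against 21.8 and 22.1 CPM in LacZ neonatal libraries (log2 0.94 ± 0.11, adjusted p = 1.6e-06).

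The NR4A receptors were higher in adult cells. Nr4a1, Nr4a2 and Nr4a3 encode orphan nuclear receptors whose genes respond rapidly to many stimuli, in part through CREB, which binds the cAMP response element (CRE). The study's title names Nr4a3. Nr4a1 (chromosome 15, 101254269 to 101274795) had 273 and 307 CPM in LacZ adult libraries, against 46.2 and 50.3 CPM in LacZ neonatal libraries (log2 2.59 ± 0.14, adjusted p = 5.8e-11). Nr4a2 (chromosome 2, 57106830 to 57124003) had 12.9 and 15.7 CPM in LacZ adult libraries, against 4.58 and 2.77 CPM in LacZ neonatal libraries (log2 1.96 ± 0.27, adjusted p = 1.2e-05). Nr4a3 (chromosome 4, 48045153 to 48086447) had 11.2 and 13.4 CPM in LacZ adult libraries, against 2.72 and 2.83 CPM in LacZ neonatal libraries (log2 2.15 ± 0.23, adjusted p = 4.9e-07). For each receptor both LacZ adult libraries lay above both LacZ neonatal libraries, and Nr4a1 was the most abundant by CPM in every LacZ library, a scale that is not corrected for gene length. Other immediate early genes went both ways. Of 31 tested genes 17 were higher and 7 lower (median 0.28), and the 17 became 11 without LacZ neonatal replicate 1. Fos, an AP-1 subunit, had 64.7 and 76.6 CPM in LacZ adult libraries, against 29.8 and 27.1 CPM in LacZ neonatal libraries (log2 1.31 ± 0.16, adjusted p = 2.3e-06). Egr2, a zinc finger factor, had 72.7 and 72.1 CPM in LacZ adult libraries, against 20.7 and 19.5 CPM in LacZ neonatal libraries (log2 1.85 ± 0.09, adjusted p = 1.1e-11). Both genes were higher in both adult libraries. Junb had 275 and 313 CPM in LacZ adult libraries, against 159 and 167 CPM in LacZ neonatal libraries (log2 0.85 ± 0.11, adjusted p = 3.5e-06), whereas its relative Jun had 71.5 and 68 CPM in LacZ adult libraries, against 116 and 103 CPM in LacZ neonatal libraries (log2 -0.65 ± 0.09, adjusted p = 1.4e-05). Egr1, the most abundant of the class by CPM, had 539 and 540.1 CPM in LacZ adult libraries, against 449 and 449 CPM in LacZ neonatal libraries (log2 0.27 ± 0.08, adjusted p = 0.015), a call lost without either LacZ neonatal library (log2 0.27 each). Dusp2, a phosphatase of MAP kinases, had 0 counts in LacZ adult libraries, against 1.13 and 1.33 CPM in LacZ neonatal libraries, and was at least 13.8-fold lower.

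The 250 bases before the RefSeq start of each NR4A gene and of Fos are shown because these genes rose together and carry a motif in common (RefSeq sequences, build GRCm38.p6, the assembly of mm10). For Nr4a1 and Nr4a3 the RefSeq start differs from the start of the gene coordinates given above, so their windows lie within or run into those coordinates. Capitals mark the CRE half-site TGACG and its reverse complement CGTCA, searched on both strands.
Nr4a1 promoter, chr15:101266596-101266845, plus strand: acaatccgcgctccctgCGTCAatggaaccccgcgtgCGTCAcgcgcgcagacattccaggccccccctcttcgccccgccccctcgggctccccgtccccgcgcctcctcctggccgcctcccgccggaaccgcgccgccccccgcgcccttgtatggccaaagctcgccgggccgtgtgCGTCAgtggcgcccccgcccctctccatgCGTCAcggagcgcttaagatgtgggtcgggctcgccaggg
Nr4a2 promoter, chr2:57124004-57124253, minus strand: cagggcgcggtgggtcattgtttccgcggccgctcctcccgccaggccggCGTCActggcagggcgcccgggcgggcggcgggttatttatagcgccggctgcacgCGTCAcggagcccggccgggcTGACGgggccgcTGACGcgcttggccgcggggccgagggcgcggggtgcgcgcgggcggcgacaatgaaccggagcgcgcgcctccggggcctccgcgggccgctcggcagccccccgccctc
Nr4a3 promoter, chr4:48045055-48045304, plus strand: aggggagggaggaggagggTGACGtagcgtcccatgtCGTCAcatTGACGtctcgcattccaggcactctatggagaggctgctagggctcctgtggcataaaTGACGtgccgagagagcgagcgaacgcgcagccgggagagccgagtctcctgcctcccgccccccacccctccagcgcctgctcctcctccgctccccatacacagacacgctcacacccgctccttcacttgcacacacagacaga
Fos promoter, chr12:85473640-85473889, plus strand: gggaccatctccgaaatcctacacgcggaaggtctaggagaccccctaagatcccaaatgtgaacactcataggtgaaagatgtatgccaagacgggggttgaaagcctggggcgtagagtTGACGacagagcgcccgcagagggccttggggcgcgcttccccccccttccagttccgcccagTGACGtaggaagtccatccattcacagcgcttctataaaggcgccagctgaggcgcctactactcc
Each NR4A window holds 4 half-sites and that of Fos 2. Of 32851 RefSeq promoter windows of the same length, 17.8% hold at least 1 half-site, 3.9% at least 2 and 0.137% at least 4. Among immediate early genes with a promoter in the table, a half-site was found in 8 of 13 called higher, 3 of 6 called lower and 4 of 5 not called. A match is a description of the letters and not a measured site. The windows shown were chosen for this motif, so the shares are no test of it.

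Chemokines, cytokines and other NF-kB targets were mostly higher in adult cells. Of 38 tested genes 28 were higher and 2 lower, with a median of 1.17, and the 2 became 1 without LacZ adult replicate 1 or LacZ neonatal replicate 2. Fibroblasts use these signals to draw neutrophils and monocytes to injured tissue. The neutrophil attractant gene Cxcl5 (chromosome 5, 90759360 to 90761624) had 2839 and 3551 CPM in LacZ adult libraries, against 211 and 218 CPM in LacZ neonatal libraries (log2 3.90 ± 0.15, adjusted p = 5e-13). Cxcl1 had 342 and 429.9 CPM in LacZ adult libraries, against 68.2 and 72.7 CPM in LacZ neonatal libraries (log2 2.45 ± 0.12, adjusted p = 5.3e-12). Cxcl3 had 62.1 and 96.2 CPM in LacZ adult libraries, against 4.36 and 4.91 CPM in LacZ neonatal libraries (log2 4.09 ± 0.18, adjusted p = 2.4e-12). Adult libraries stood well above neonatal ones in all of these. The monocyte attractant Ccl2, abundant at both ages, had 1256 and 1454 CPM in LacZ adult libraries, against 787 and 828 CPM in LacZ neonatal libraries (log2 0.75 ± 0.08, adjusted p = 6e-07). Its relative Ccl7 had 839.8 and 1115 CPM in LacZ adult libraries, against 384 and 412 CPM in LacZ neonatal libraries (log2 1.30 ± 0.10, adjusted p = 7.3e-09). Interleukin 6 (Il6) had 626 and 791 CPM in LacZ adult libraries, against 109.9 and 128 CPM in LacZ neonatal libraries (log2 2.58 ± 0.13, adjusted p = 1.7e-11). The ages did not overlap in any of the 3. Haptoglobin (Hp), an acute phase protein on the same list, had 177 and 191 CPM in LacZ adult libraries, against 15.7 and 14.1 CPM in LacZ neonatal libraries (log2 3.63 ± 0.15, adjusted p = 9.3e-13). Pentraxin 3 (Ptx3), a soluble pattern receptor not on the list, had 1799.9 and 2194 CPM in LacZ adult libraries, against 164 and 164 CPM in LacZ neonatal libraries (log2 3.60 ± 0.11, adjusted p = 3.2e-14). The adhesion gene Vcam1 was among the 2 lower ones (log2 -0.23 ± 0.08, adjusted p = 0.041), a call lost without LacZ adult replicate 1 (log2 -0.15) or either LacZ neonatal library (log2 -0.22 and -0.23). Markers of macrophages, which express many of these genes, summed to 308 and 318 CPM in LacZ adult libraries, against 198 and 234 CPM in LacZ neonatal libraries, and their part was not tested.

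**Figure D4:**
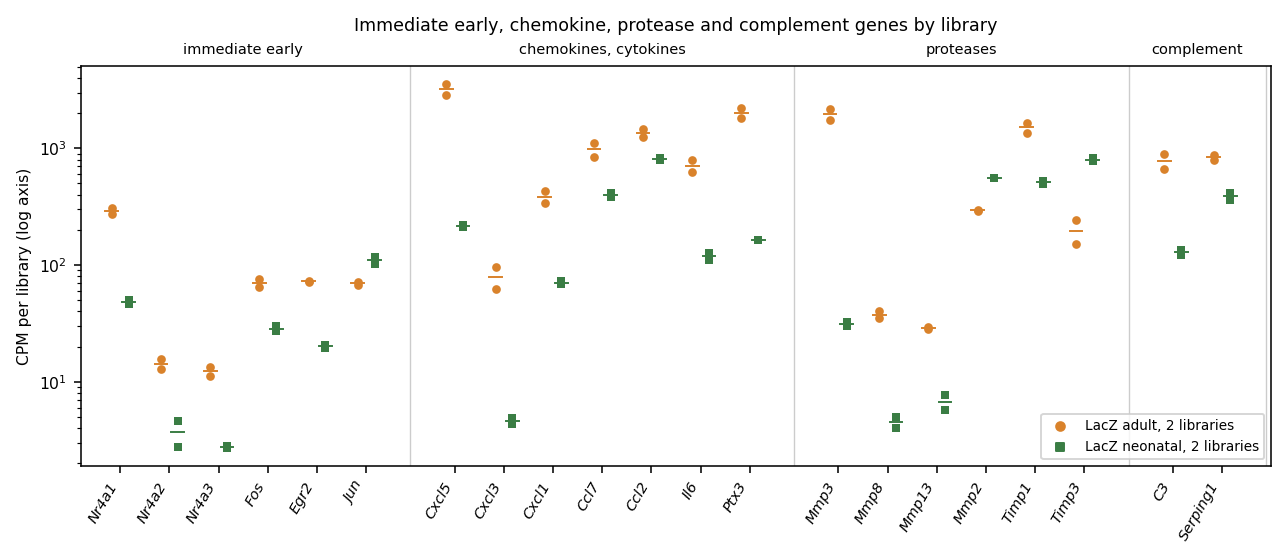
CPM per library on a log axis for immediate early, chemokine, protease and complement genes, LacZ adult left of LacZ neonatal, with a line at each mean of 2 libraries. Jun, Mmp2 and Timp3 are lower in LacZ adult cells, and the other genes shown are higher there, up to 63.2-fold for Mmp3.

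Il6 and Mmp3 windows are shown for the letters of NF-kB and AP-1 sites, the binding sequences of the factors through which inflammatory signals often act. Capitals mark the AP-1 site TGANTCA and the NF-kB site (GGG, any pair of bases, then TTTCC), searched on both strands in the 250 bases before the RefSeq start.
Il6 promoter, chr5:30012864-30013113, plus strand: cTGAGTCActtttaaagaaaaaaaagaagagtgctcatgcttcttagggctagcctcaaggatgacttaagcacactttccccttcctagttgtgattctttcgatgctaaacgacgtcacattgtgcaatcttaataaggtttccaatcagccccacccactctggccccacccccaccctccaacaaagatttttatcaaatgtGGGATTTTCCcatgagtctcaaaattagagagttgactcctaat
Mmp3 promoter, chr9:7445572-7445821, plus strand: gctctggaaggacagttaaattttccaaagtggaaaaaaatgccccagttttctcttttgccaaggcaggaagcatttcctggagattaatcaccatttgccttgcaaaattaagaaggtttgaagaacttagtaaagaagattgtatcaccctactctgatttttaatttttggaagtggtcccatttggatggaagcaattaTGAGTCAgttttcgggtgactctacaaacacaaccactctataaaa
The AP-1 letters occur in 6.75% and the NF-kB letters in 1.41% of the 32851 windows. Of protease and inhibitor genes with a promoter in the table, 3 of 10 called higher (Mmp3, Mmp10 and Mmp13) and 0 of 4 called lower held an AP-1 site. Of the chemokine list, 3 of 19 called higher (Il6, Cxcl1 and Cxcl3), 1 of 1 called lower and 3 of 5 not called held an NF-kB site.

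Complement and antigen presentation genes had 8 of 15 tested higher and 4 lower (median 0.37), the 8 becoming 5 without LacZ neonatal replicate 2, and the 4 becoming 1 without it and 2 without LacZ adult replicate 2. Complement C3 had 890.1 and 665 CPM in LacZ adult libraries, against 133 and 123 CPM in LacZ neonatal libraries (log2 2.60 ± 0.12, adjusted p = 2.5e-12). The C1 inhibitor gene Serping1 had 799 and 880.0 CPM in LacZ adult libraries, against 416 and 362 CPM in LacZ neonatal libraries (log2 1.11 ± 0.10, adjusted p = 2.5e-08). Interferon response genes had 13 of 36 higher and 3 lower (median 0.21), the 3 becoming 1 without LacZ neonatal replicate 1 and 0 without LacZ neonatal replicate 2. Zbp1, a sensor of unusual nucleic acids, had 199 and 197 CPM in LacZ adult libraries, against 44.8 and 49.1 CPM in LacZ neonatal libraries (log2 2.08 ± 0.20, adjusted p = 1.2e-07). The antiviral gene Rsad2 had 159 and 133 CPM in LacZ adult libraries, against 126 and 169 CPM in LacZ neonatal libraries, with overlapping groups, and was not called (log2 -0.01 ± 0.15, adjusted p = 0.96). The transcription factor gene Irf7 had 260.4 and 315 CPM in LacZ adult libraries, against 185 and 180.2 CPM in LacZ neonatal libraries (log2 0.66 ± 0.15, adjusted p = 0.0021). Ifit1 had 439 and 438 CPM in LacZ adult libraries, against 297 and 334 CPM in LacZ neonatal libraries and was not called (log2 0.47 ± 0.19, adjusted p = 0.06), but 4 alternative settings called it, with log2 changes of 0.47 to 0.48.

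Several FGF ligand genes were higher in adult cells. Fgf10, which acts on epithelia, had 15.2 and 14.2 CPM in LacZ adult libraries, against 0.509 and 0.694 CPM in LacZ neonatal libraries (log2 4.59 ± 0.21, adjusted p = 3.5e-12). Fgf7, the keratinocyte growth factor, had 155 and 179 CPM in LacZ adult libraries, against 33.8 and 33.6 CPM in LacZ neonatal libraries (log2 2.31 ± 0.11, adjusted p = 6.8e-12). Fgf2 had 300.4 and 278 CPM in LacZ adult libraries, against 72.3 and 71.1 CPM in LacZ neonatal libraries (log2 2.01 ± 0.08, adjusted p = 1.2e-12). All 3 ligands were higher in both LacZ adult libraries, with no overlap. The receptor gene Fgfr2 had 14.9 and 13.6 CPM in LacZ adult libraries, against 52.4 and 49.1 CPM in LacZ neonatal libraries (log2 -1.83 ± 0.14, adjusted p = 4.3e-09), lower in adult cells, as was the ligand gene Pdgfb, which endothelial cells make (log2 -2.48 ± 0.28, adjusted p = 8.4e-07). Hgf, a mesenchymal ligand of the MET receptor, had 48.7 and 41.9 CPM in LacZ adult libraries, against 9.56 and 13.8 CPM in LacZ neonatal libraries (log2 1.95 ± 0.17, adjusted p = 2.6e-08). Of 28 tested genes of FGF and PDGF signalling 12 were higher and 12 lower (median -0.23).

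Wnt genes had 7 of 35 tested higher and 12 lower (median -0.38, and -0.35 if genes without reads take their bound), the 12 becoming 6 without LacZ adult replicate 2 and 7 without LacZ neonatal replicate 2. The 37 listed Wnt genes summed to 2180 and 2057 CPM in LacZ adult libraries, against 1098 and 1089 CPM in LacZ neonatal libraries. Secreted Wnt antagonists fell on both sides, with Sfrp2, Dkk1 and Dkk2 lower and a pair higher. Frzb had 549.8 and 654 CPM in LacZ adult libraries, against 115 and 114 CPM in LacZ neonatal libraries (log2 2.39 ± 0.10, adjusted p = 1.2e-12). Sfrp1 had 761 and 621 CPM in LacZ adult libraries, against 249 and 246 CPM in LacZ neonatal libraries (log2 1.48 ± 0.14, adjusted p = 9.3e-08). The ligand gene Wnt9a had 3.0 and 3.15 CPM in LacZ adult libraries, against 13.9 and 11.9 CPM in LacZ neonatal libraries (log2 -2.06 ± 0.20, adjusted p = 1.6e-07). TGF-beta and BMP genes had 9 of 31 higher and 7 lower (median 0.04). Beside these and the Wnt counts, 16.7% of all tested genes were higher and 19.1% lower. Betaglycan (Tgfbr3), a co-receptor, had 218 and 184 CPM in LacZ adult libraries, against 43.2 and 40.8 CPM in LacZ neonatal libraries (log2 2.26 ± 0.11, adjusted p = 1.4e-11). The ligand gene Bmp4 had 15.1 and 13.3 CPM in LacZ adult libraries, against 40.2 and 36.3 CPM in LacZ neonatal libraries (log2 -1.43 ± 0.12, adjusted p = 2.9e-08). The BMP target Id3 had 390.4 and 451 CPM in LacZ adult libraries, against 217 and 205 CPM in LacZ neonatal libraries (log2 1.0 ± 0.09, adjusted p = 5.9e-08). The stress cytokine gene Gdf15 had 19 and 27.4 CPM in LacZ adult libraries, against 51.8 and 49.1 CPM in LacZ neonatal libraries (log2 -1.11 ± 0.14, adjusted p = 3.2e-06). The groups did not overlap in any of these genes. Retinoid genes had 7 of 12 higher and 2 lower (median 0.28), the 7 becoming 4 without LacZ adult replicate 2 or LacZ neonatal replicate 2, and the 2 becoming 1 without either of these or LacZ neonatal replicate 1. Besides Aldh1a2, the retinol dehydrogenase gene Rdh10 rose, with 24.7 and 24.9 CPM in LacZ adult libraries, against 7.02 and 5.65 CPM in LacZ neonatal libraries (log2 1.97 ± 0.14, adjusted p = 1.9e-09), while the synthesis enzyme gene Aldh1a3 fell (log2 -1.47 ± 0.18, adjusted p = 2.2e-06).

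Glycolytic genes rose in 10 of 17 tested and fell in none (median 0.53). The lactate exporter gene Slc16a3 had 101 and 94.8 CPM in LacZ adult libraries, against 36.6 and 40.6 CPM in LacZ neonatal libraries (log2 1.34 ± 0.10, adjusted p = 6.5e-09). Pyruvate kinase (Pkm) had 2018 and 2262 CPM in LacZ adult libraries, against 1232 and 1249 CPM in LacZ neonatal libraries (log2 0.79 ± 0.08, adjusted p = 1.8e-07). Aldolase (Aldoa) had 895 and 1064 CPM in LacZ adult libraries, against 621 and 626 CPM in LacZ neonatal libraries (log2 0.65 ± 0.08, adjusted p = 4.1e-06). Adult libraries were above neonatal ones in each. Fatty acid oxidation and lipid genes had 8 of 22 higher and 2 lower (median 0.20), the 8 becoming 5 without either LacZ neonatal library and the 2 becoming 1 without LacZ neonatal replicate 1. Lipoprotein lipase (Lpl) had 354 and 269 CPM in LacZ adult libraries, against 150.3 and 125 CPM in LacZ neonatal libraries (log2 1.18 ± 0.12, adjusted p = 2.4e-07). Cholesterol synthesis had 1 of 18 higher and 1 lower (median 0.04), and the 1 lower became 4 without LacZ adult replicate 1 and 0 without any 1 of the other libraries. Insig1, which holds back sterol synthesis when sterols are plentiful, was higher (log2 0.36 ± 0.10, adjusted p = 0.0084), a call lost without LacZ neonatal replicate 2 (log2 0.26). Lysosome and autophagy genes had 7 of 28 higher and 6 lower (median 0.08), and the 7 became 11 without LacZ adult replicate 1 and 4 without LacZ neonatal replicate 1, when the 6 became 3. The shares over all tested genes were 16.7% higher and 19.1% lower. The lysosomal galactosidase gene Gla rose (log2 1.02 ± 0.10, adjusted p = 9.4e-08). The hexosaminidase gene Hexa fell (log2 -0.55 ± 0.09, adjusted p = 5.5e-05).

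The MGT libraries of the same ages share no library with the LacZ comparison and let the age difference be read again, in cells that also carried the reprogramming factors. MGT adult against MGT neonatal cells gave 3567 calls (29.9%), 1672 higher (14%) and 1895 lower (15.9%). In this joint fit LacZ gave more calls, 4281. With each comparison fitted on its own 4 libraries the order reversed, with 4411 calls under MGT and 3134 under LacZ. Which vector gave more calls thus depends on the fit. At least 2-fold differences numbered 580 higher (4.86%) and 624 lower (5.23%). Without MGT adult replicate 2 there were 2342 calls, 1103 higher and 1239 lower. Without MGT adult replicate 1 or MGT neonatal replicate 2 the lower count was 1260. Of genes higher with age under LacZ, 1146 were also higher under MGT, 57.4% of the LacZ calls and 68.5% of the MGT calls, and 14 were called in the opposite direction. Of genes lower with age under LacZ, 1376 were also lower under MGT, 60.2% of the LacZ calls and 72.6% of the MGT calls, and 29 were opposite. Cells of both vectors may come from the same preparations, which the labels do not state.

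Large changes under LacZ were read again under MGT. Mmp3 had 888 and 972 CPM in MGT adult libraries, against 12.4 and 9.88 CPM in MGT neonatal libraries (log2 6.38 ± 0.14, adjusted p = 3.1e-16). Postn had 188 and 160.0 CPM in MGT adult libraries, against 2114 and 2082 CPM in MGT neonatal libraries (log2 -3.59 ± 0.10, adjusted p = 1.3e-14). Mcam had 6.95 and 6.03 CPM in MGT adult libraries, against 143 and 144 CPM in MGT neonatal libraries (log2 -4.46 ± 0.11, adjusted p = 9.1e-16). Each pair of groups was again without overlap. Over members of no other list, mesothelial sums were 274 and 283 CPM in MGT adult libraries, against 564 and 597 CPM in MGT neonatal libraries. Endothelial sums of this kind were 661 and 660.3 CPM in MGT adult libraries, against 1631 and 1521 CPM in MGT neonatal libraries. All 22 listed mesothelial genes instead summed to 1002 and 1055 CPM in MGT adult libraries, against 823 and 864 CPM in MGT neonatal libraries. Of 17 imprinted genes 14 were lower and 1 higher (median -1.41), of 19 myofibroblast genes 14 lower and 2 higher (median -0.72), of 38 chemokine and cytokine genes 29 higher and 1 lower (median 1.72), and of 24 fibroblast identity genes 15 higher and 4 lower (median 0.41).

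Interferon and cholesterol genes gave other counts under MGT. Interferon response genes had 1 of 36 higher and 22 lower (median -0.47). Ifit1 had 112 and 114 CPM in MGT adult libraries, against 231 and 185 CPM in MGT neonatal libraries (log2 -0.88 ± 0.20, adjusted p = 0.002). The difference between the vectors, called in 4.49% of all tested genes, was called here (log2 -1.35 ± 0.27, adjusted p = 0.0057). Cholesterol synthesis genes had 13 of 18 lower and none higher (median -0.43), though the difference between vectors was tested by gene and not for the list. Nr4a1 had 244 and 286 CPM in MGT adult libraries, against 138 and 99.5 CPM in MGT neonatal libraries, a smaller age difference than under LacZ (difference of log2 changes -1.43 ± 0.19, adjusted p = 0.00013). For Nr4a3 and Nr4a2 the difference between vectors was 0.02 ± 0.35, adjusted p = 0.99 and 0.10 ± 0.38, adjusted p = 0.94 on the log2 scale.

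**Figure D5:**
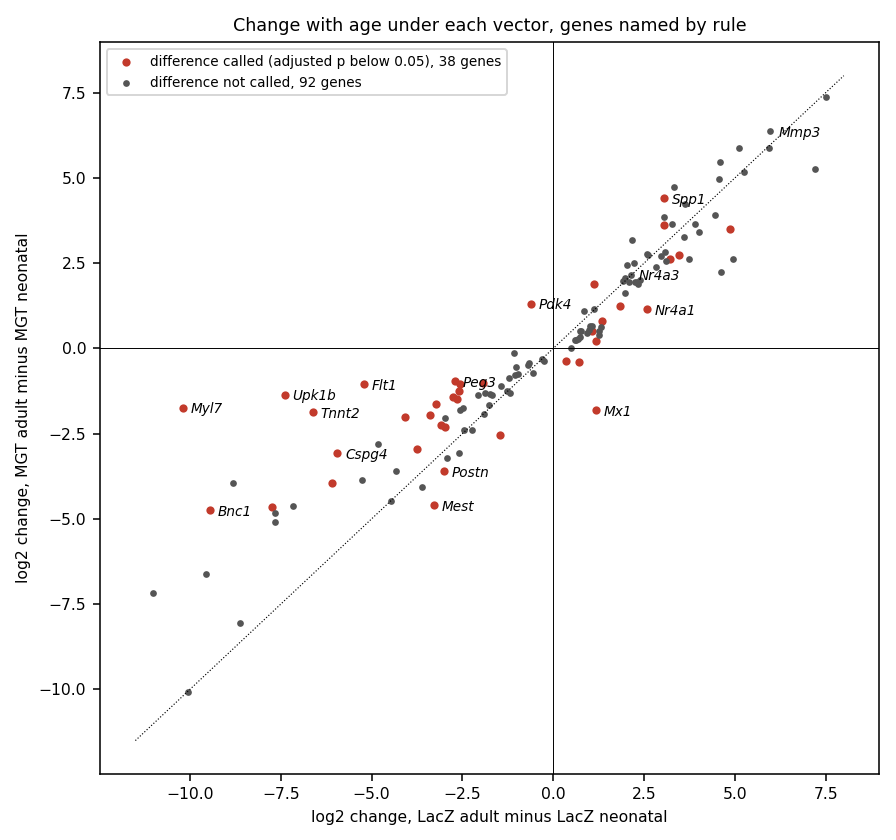
Log2 change from neonatal to adult cells under LacZ (x axis) and under MGT (y axis) for 130 genes named by rule, with a dotted line of equality. The change had the same sign under both vectors in 126 genes, and the difference was called in 38. Some of the values below about -7 are fitted to genes with few or no adult counts.

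Aged cells of 18 months under LacZ are compared with the same neonatal libraries, so their values are given beside the adult ones with no test of likeness. Postn had 173 and 148 CPM in LacZ aged libraries, 305 and 263 CPM in LacZ adult libraries and 2259.8 and 2272 CPM in LacZ neonatal libraries. Pdgfra had 608 and 686 CPM in LacZ aged libraries, 962 and 873 CPM in LacZ adult libraries and 202 and 192 CPM in LacZ neonatal libraries. Peg3 had 22.5 and 30.7 CPM in LacZ aged libraries, 30 and 25.4 CPM in LacZ adult libraries and 182 and 179 CPM in LacZ neonatal libraries. For these 3 genes the aged and adult libraries all lay on the same side of both neonatal libraries. Acta2 had 2171 and 1948 CPM in LacZ aged libraries, 995 and 1069 CPM in LacZ adult libraries and 2775 and 2740.5 CPM in LacZ neonatal libraries. Acta2 was thus also below both neonatal libraries at both later ages, with the aged values between the adult and neonatal ones. Ifit1 had 11.9 and 29 CPM in LacZ aged libraries, 439 and 438 CPM in LacZ adult libraries and 297 and 334 CPM in LacZ neonatal libraries, and Hp had 4.34 and 6.25 CPM in LacZ aged libraries, 177 and 191 CPM in LacZ adult libraries and 15.7 and 14.1 CPM in LacZ neonatal libraries. Mesothelial markers of no other list summed to 101 and 103 CPM in LacZ aged libraries, and all 22 listed ones to 763 and 807 CPM.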

How the data were processed

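RNA-seq of cultured mouse cardiac fibroblasts was read from 1 table of 12 libraries. Per the file headers, the authors deposited a whole-number count and an FPKM value per gene and library, and they deposited FPKM as reads per exon length and library total. Per the submitters' processing notes, Trimmomatic 0.36 and Subread 1.5.1 with featureCounts on mm10 were used. No source used here names aligner settings or the counting strand, so overlapping antisense genes cannot be separated. The labels give polyA RNA in the molecule field and ribosomal RNA depletion in the extract protocol. The table lists 16383 genes and ends before the later gene identifiers, so genes with those identifiers were not analysed here. Library totals, recovered from counts, FPKM and exon length, were 15751686 and 17576303 reads in LacZ adult libraries and 17637573 and 18796715 in LacZ neonatal libraries. The table's counts made up 86.48 to 87.07% of them.

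Counts of all 12 libraries were fitted with 6 group means in edgeR 4.0.16 (R 4.3.3), with TMM factors of 0.9882 to 1.011 on the library totals, after edgeR's filter on low counts, which left 11940 genes. The quasi-likelihood test gave p-values, adjusted by the Benjamini-Hochberg method over all tested genes with a threshold of 0.05. Residual degrees of freedom were 6. Values after ± are standard errors of log2 changes, computed as the change divided by the square root of F. CPM uses library totals and TMM factors. Counting intervals are exact at 95%, and a group at 0 is set to a floor of 3 counts over the group, covering counting error only. Deviations of same-numbered libraries from their group means were nearly uncorrelated between groups (correlations -0.05 to 0.053). Shared preparations need not leave such a correlation, so pairing is not excluded.

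The alternatives were DESeq2 1.42.0 (its size factors and its Wald test), limma-voom (limma 3.58.1), column sums as library sizes, no filter, a replicate block, the 4 compared libraries alone and leaving out each library. A correction for gene length was added after seeing the data. The script was tested on simulated data. The gene lists and the comparison were chosen with earlier results of these data known. Genes were named by rule as the 12 largest changes in each direction among called genes whose groups do not overlap with at least 5 CPM in the higher group, the 12 largest in each direction among genes with at least 10 CPM in each LacZ library, the 3 largest called members of each list, and Nr4a1, Nr4a2 and Nr4a3. The other named genes were chosen after their values were seen. Genes of the first rule have separate groups by choice, and the share of all genes without overlap is not given here. Some genes that the rule picks are not reported here. Motif letters were counted in 250 bases before RefSeq gene starts, with 626 of 858 genes matched to a promoter.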

Additional observations from a re-analysis of the deposited data

Results flagged for a closer look

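The change from neonatal to adult cells differed between the vectors, tested gene by gene as MGT change minus LacZ change (edgeR quasi-likelihood test, adjusted over all tested genes), in 60 of the 219 genes the text or its figures name, beside 4.49% of all tested genes. Many of the 219 were chosen for their size of change, so the 60 are given as values only. A positive difference means that the log2 change under MGT was more positive than under LacZ, and the values below are these differences on the log2 scale. Among cardiomyocyte markers the difference was 8.46 for Myl7, 4.75 for Tnnt2, 3.05 for Casq2 and 1.83 for Des. Among epicardial and mesothelial markers the difference was 6.04 for Upk1b, 5.14 for Krt18, 4.72 for Bnc1, 3.60 for Krt7, 3.09 for Lrrn4, 2.07 for Ezr, 2.01 for Sema3d and -0.61 for Aldh1a2. Among endothelial and mural markers the difference was 4.17 for Flt1, 2.88 for Cspg4, 2.13 for Emcn, 1.17 for Pecam1 and 0.50 for Tagln. Among immune, Schwann cell and skeletal markers the difference was 1.10 for Csf1r, 0.77 for Lcn2, -0.62 for Egr2 and -1.13 for Sox9. Among interferon response genes the difference was -0.69 for Isg15, -1.35 for Ifit1, -1.51 for Rsad2 and -2.99 for Mx1. Among imprinted and IGF genes the difference was 1.75 for Peg3, 1.00 for Meg3, 0.84 for Igfbp2, 0.78 for Plagl1, 0.64 for Dcn and -1.30 for Mest. Among matrix, fibroblast identity and myofibroblast genes the difference was 1.64 for Dpp4, 1.52 for Ccn4, 1.37 for Spp1, 1.04 for Thy1, 1.02 for Tnc, 0.93 for Tgfb2, 0.82 for Timp3, -0.60 for Postn and -1.73 for Col14a1. Among signalling, metabolic and immediate early genes the difference was 6.68 for Dusp2, 1.92 for Pdk4, -0.49 for Id3, -0.53 for Slc16a3, -0.56 for Pfkl, -0.71 for Insig1, -0.88 for Sfrp1, -0.95 for Lpl, -1.07 for Aldh1a3 and -1.43 for Nr4a1. For Tbx20, a cardiac field transcription factor, it was -0.53. Among genes on no list the difference was 1.58 for Cd93, 1.44 for Atp1b1, 1.33 for Nes, 1.33 for Sorbs2, 1.18 for Itga4, 0.68 for Ctla2a, 0.58 for Asb5, -0.71 for Cpxm1 and -1.36 for Cygb.

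Myl7, Casq2, Krt18, Bnc1 and Dusp2 had at most 3 counts over both LacZ adult libraries, so their fitted differences depend on few reads. Tnnt2, at 2.81 and 2.99 CPM in LacZ adult libraries, against 308 and 262 CPM in LacZ neonatal libraries, had 277 and 315 CPM in MGT adult libraries, against 878 and 1270.2 CPM in MGT neonatal libraries. Upk1b had 30.9 and 36.6 CPM in MGT adult libraries, against 83 and 89.2 CPM in MGT neonatal libraries, beside 0.958 and 0.732 CPM in LacZ adult libraries and 145 and 139 CPM in LacZ neonatal libraries. Pdk4, a mitochondrial kinase, had 52.2 and 60.9 CPM in MGT adult libraries, against 23.5 and 21.8 CPM in MGT neonatal libraries, beside 7.73 and 8.68 CPM in LacZ adult libraries and 14.4 and 10.7 CPM in LacZ neonatal libraries. Mx1, an interferon-induced GTPase with a similar copy, Mx2, had 1.18 and 0.9 CPM in MGT adult libraries, against 3.54 and 3.8 CPM in MGT neonatal libraries, beside 17.5 and 12.3 CPM in LacZ adult libraries and 4.53 and 8.48 CPM in LacZ neonatal libraries. No cause of these differences was tested.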

How the results depend on the processing

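The 4281 calls between LacZ adult and LacZ neonatal cells became 4254 with DESeq2 size factors, 4281 with column sums as library sizes, 4484 without the filter, 3859 with the DESeq2 Wald test, 4349 with limma-voom, 3134 with only the 4 libraries compared and 4401 with the gene length offset. Leaving out 1 library gave 2931 to 5227 calls, and 1311 to 2535 higher ones. Deviations of same-numbered libraries were nearly uncorrelated between groups, and the replicate block gave 4224 calls. Of 2628 values of the 219 named genes under the alternatives, 2590 kept their side of the threshold, 31 lost the call, 7 gained it and 0 reversed. A value called in neither fit counted as kept, whatever its sign. Many of the 219 genes were chosen for large called changes, so these counts do not show how other genes depend on the processing. Without 1 library, MGT adult against MGT neonatal cells gave 2342 to 2737 calls, 1103 to 1327 higher and 1239 to 1410 lower. Some list counts moved: with 1 library left out, replication genes called lower ranged from 1 to 5 (3 with only the 4 libraries), mitotic genes called higher from 12 to 21, cell cycle brakes called lower from 3 to 5, immediate early genes called higher from 11 to 17, complement genes called higher from 5 to 9, Wnt genes called lower from 6 to 14, retinoid genes called higher from 4 to 6, lipid genes called higher from 5 to 9 (5 with only the 4 libraries), lysosome genes called higher from 4 to 11 and skeletal genes called higher from 3 to 4 (3 with only the 4 libraries). Fewer samples in these fits also mean fewer residual degrees of freedom. Some counts rose rather than fell in them, and no cause of these moves was tested. At these depths a gene with few counts in LacZ adult cells gives a bound or a wide interval rather than a fold.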
